A study of Homo sapiens with 44 samples.

Results

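Chromatin accessibility at ADAMTS protease genes was followed in Ccd18-Co, a fibroblast line from human colon, across 10 cytokine treatments. The regions described are the 579 peaks of the deposited ATAC-seq table, of 407383 in all, whose assigned gene was ADAMTS1 (76 peaks), ADAMTS2 (100), ADAMTS4 (11), ADAMTS5 (64), ADAMTS6 (33), ADAMTS9 (154), ADAMTS12 (55), or 1 of the antisense genes ADAMTS9-AS1 (58) and ADAMTS9-AS2 (28). ATAC-seq uses the transposase Tn5 to cut open DNA, so that read coverage over a region follows its accessibility. The genes were chosen by the coverage of an ADAMTS9-AS1 peak, which IL1B had lowered in earlier results of these data. IL1B against unstimulated cells is therefore given as a description. Its levels and its counts of peaks past the threshold are printed, and no effect is read from them.

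All 11 groups held 4 replicates of the same line, kept in serum-free medium for 72 h and then treated for 24 h. The groups were unstimulated cells, IL1B (interleukin-1β, 0.1 ng/ml per the labels, although the study's text gives more than 1 dose for it), and TNF, OSM (oncostatin M), TGFB1 (transforming growth factor β1), IL13, IFNG (interferon-γ), IFNA (interferon-α), IL6, IL22 and IL17A, each at 10 ng/ml. Nothing in the labels says that replicates came from separate cultures, so p-values measure the spread between these samples, which may be technical. Being a single line, Ccd18-Co stands for 1 source of colon fibroblasts.

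ADAMTS enzymes are secreted zinc metalloproteases with thrombospondin motifs that cut the extracellular matrix. ADAMTS1, ADAMTS4, ADAMTS5 and ADAMTS9 cleave the large proteoglycans aggrecan and versican, ADAMTS2 removes the amino-terminal propeptide of fibrillar procollagens, and ADAMTS12 cleaves cartilage oligomeric matrix protein. ADAMTS9-AS1 and ADAMTS9-AS2 are long noncoding RNA genes read from the opposite strand of the ADAMTS9 locus. Fibroblasts are a main source of both the matrix and the proteases that trim it.

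Coverage is given per Mb of the library's total, after a composition factor that sets libraries on a common scale. Every peak spans 500 bases, so levels can be set beside each other. Library totals ran from 148.8 to 823.1 Mb with a median of 416.3 Mb, and the shallowest was IL6 replicate 4, while the next lowest held 239.8 Mb. A level worth 3 reads, taken as the floor, lay between 0.285 and 1.55 per Mb. The 579 peaks held 0.124 to 0.144% of a library's coverage. The share of peaks in the whole table without any coverage was 9.64 to 17.0% in OSM libraries, 0.879 to 8.17% in TGFB1 libraries and 3.53 to 10.9% in unstimulated libraries, and its part in the OSM and TGFB1 results was not tested. Promoter-class peaks of fibroblast genes were open (COL1A1 25.1, PDGFRB 16.4, COL1A2 12.9, COL3A1 9.54 and TWIST1 7.85 per Mb), VIM was at 1.61 and LUM at 0.548, and for PDGFRA, THY1 and DCN no promoter-class peak was listed. Endothelial genes lay at 0.423 to 1.86 per Mb, KRT8 at 4.58 was the single listed epithelial gene and CD14 at 1.59 the single listed leukocyte gene.

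Central stretches of 3 peaks on which the results turn are printed from hg38, plus strand, 5′ to 3′. They are the ADAMTS9-AS1 peak behind the choice of the genes, an ADAMTS9 peak that TNF raised and TGFB1 and OSM lowered, and an ADAMTS1 peak that TNF raised. The ADAMTS9 peak was chosen after its values were seen. Capitals mark matches, on either strand, to the strings TGANTCA (AP-1) and GGAATG (TEAD) and to the consensus of NF-kB, and the 3 strings were searched without regard to overlap.
ADAMTS9-AS1 chr3:64548286-64548585: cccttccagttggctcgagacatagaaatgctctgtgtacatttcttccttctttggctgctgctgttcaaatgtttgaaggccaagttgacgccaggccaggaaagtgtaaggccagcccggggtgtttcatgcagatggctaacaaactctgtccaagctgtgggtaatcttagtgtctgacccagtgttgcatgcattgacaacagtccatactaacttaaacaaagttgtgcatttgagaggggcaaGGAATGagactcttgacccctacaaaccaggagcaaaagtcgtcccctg
ADAMTS9 chr3:64815213-64815512: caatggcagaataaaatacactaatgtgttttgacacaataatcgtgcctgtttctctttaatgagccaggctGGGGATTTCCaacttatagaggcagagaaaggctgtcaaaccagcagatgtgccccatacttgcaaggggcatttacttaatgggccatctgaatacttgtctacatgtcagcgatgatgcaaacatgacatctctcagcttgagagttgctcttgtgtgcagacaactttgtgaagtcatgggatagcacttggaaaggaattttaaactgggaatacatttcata
ADAMTS1 chr21:26806786-26807085: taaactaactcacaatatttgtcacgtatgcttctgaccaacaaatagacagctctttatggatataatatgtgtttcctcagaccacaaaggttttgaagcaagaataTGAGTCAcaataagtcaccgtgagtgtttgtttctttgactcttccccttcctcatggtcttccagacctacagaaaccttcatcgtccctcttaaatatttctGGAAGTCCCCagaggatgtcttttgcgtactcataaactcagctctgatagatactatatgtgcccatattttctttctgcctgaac
Of the 3 windows, that of the ADAMTS1 peak held an AP-1 string, those of the ADAMTS9 and ADAMTS1 peaks an NF-kB match each, and that of the ADAMTS9-AS1 peak a TEAD string. In central windows of the same length, an AP-1 string stood in 20.6% of the 579 peaks and 21.5% of all tested peaks, an NF-kB match in 6.39 and 9.2%, and a TEAD string in 21.1 and 19.8%. A match is a description of the letters and says nothing of binding.

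The name a peak carries is often not the gene it lies in. By the GENCODE v44 annotation, 185 of the 579 peaks lay inside the gene they were assigned to and 325 lay upstream of it. The deposited table classed 24 as promoter, 35 as exonic, 420 as intronic and 100 as distal, and 257 of the intronic peaks lay outside the named gene. ADAMTS9 (chr3:64515654-64688000, minus strand) held only 2 of its 154 peaks, and 152 lay upstream of its start, many of them inside ADAMTS9-AS2 (chr3:64684909-65053439, plus strand), which starts within ADAMTS9 near its 5′ end and runs on past it. In turn 26 of the 28 ADAMTS9-AS2 peaks lay before the ADAMTS9-AS2 start, within ADAMTS9. ADAMTS9-AS1 (chr3:64561322-64592757, plus strand) lies inside ADAMTS9 on the other strand. ATAC-seq reads carry no strand, so accessibility in these overlaps cannot be told apart between the genes.

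A call, raised or lowered, required a limma adjusted p-value (Benjamini-Hochberg over 407174 tested peaks, all 579 of these peaks among them) under 0.05. Against unstimulated cells, 90 of the 579 peaks (15.5%) were called for at least 1 of the 9 cytokines other than IL1B, beside 12.5% of all tested peaks. Of these 90 peaks, 59 were called for 1 cytokine, 27 for 2, 2 for 3 and 2 for 4. All 10 comparisons share the same 4 unstimulated libraries.

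TNF raised 17 and lowered 16 of the 579 peaks (5.7%, beside 4.14% of all tested peaks). OSM raised 18 and lowered 8 (4.49%, beside 5.18%), and TGFB1 raised 8 and lowered 40 (8.29%, beside 3.97%). The lowered peaks made up 6.91% of the 579 with TGFB1 and 2.87% of all tested peaks. Under a median-of-ratios scaling, which moved the median log2 change over all peaks by -0.12 for OSM and 0.11 for TGFB1, the splits became 7 raised and 9 lowered for OSM and 13 raised and 29 lowered for TGFB1. Over all tested peaks that scaling gave 1.48% raised and 1.31% lowered for OSM, and 2.07 and 1.46% for TGFB1. The direction of the OSM calls as a group thus turned with the scaling, while lowered calls outnumbered raised ones with TGFB1 under every scaling tried. Of the TGFB1 calls, ADAMTS1 alone gave 18 of the 40 lowered and 1 of the 8 raised. With median-of-ratios scaling it gave 17 of the 29 lowered and 1 of the 13 raised. Under that scaling the excess of lowered calls thus came from ADAMTS1, many of whose peaks are neighbours and not independent. With IL1B, as a description, 7 peaks lay above and 11 below at the same threshold (3.11%, beside 3.19%).

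The other cytokines changed few of these peaks. IL13 raised 2 and lowered 4 (1.04%, beside 1.4% of all tested peaks), IFNG raised 3 and lowered 5 (1.38%, beside 1.56%) and IFNA raised 1 and lowered 3 (0.691%, beside 0.651%). IL6 lowered 1 (0.173%, beside 0.0646%) and IL22 raised 1 (0.173%, beside 0.084%). IL17A changed 0 by limma (beside 0.0305%), and no other tool was run. At an unadjusted limma p under 0.05 stood 38 of the 579, beside 25591 of the 407174 tested peaks.

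**Figure D1:**
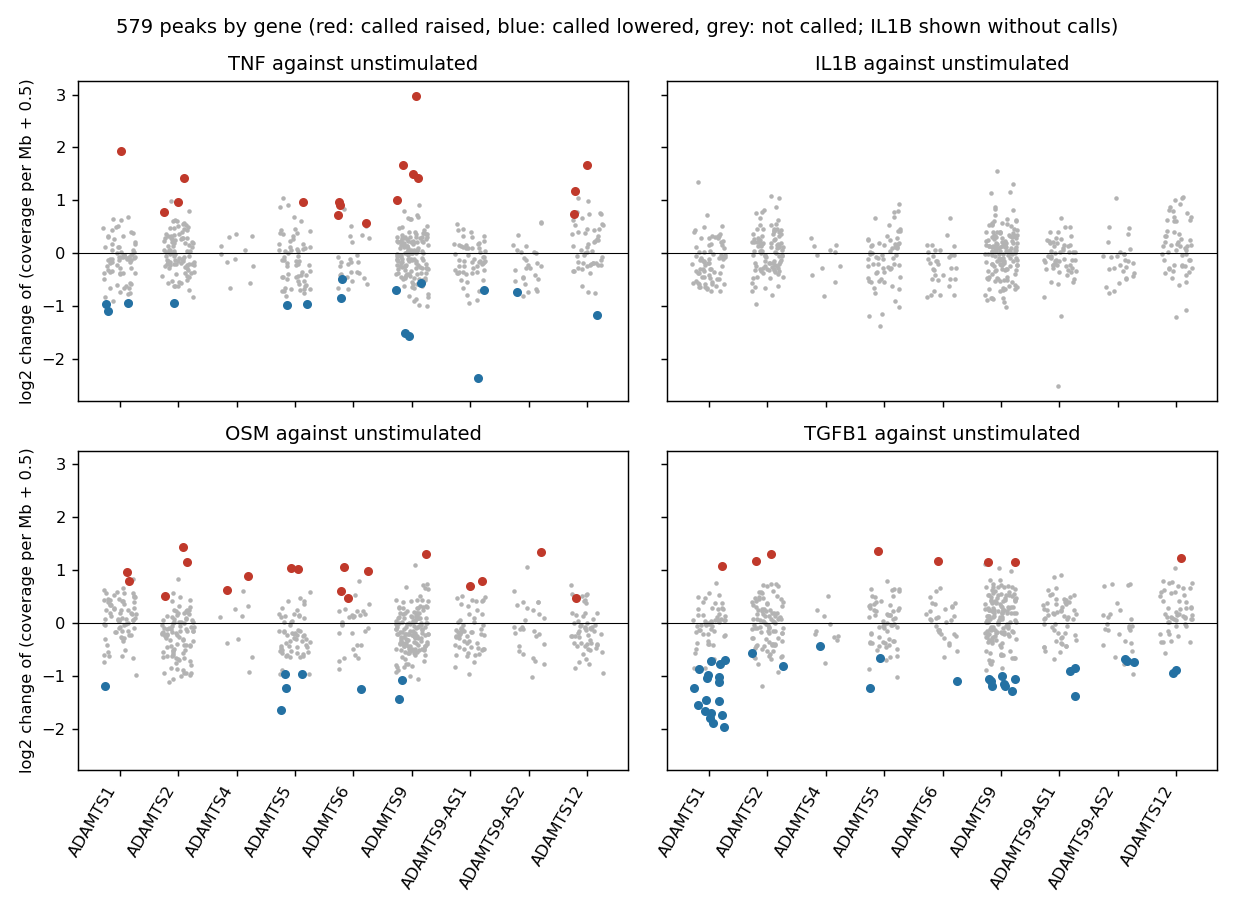
Log2 change of coverage per Mb (plus 0.5) against unstimulated cells for each of the 579 peaks (points, spread sideways within a gene) under TNF, IL1B, OSM and TGFB1, with called peaks in red (raised) or blue (lowered) and calls left out for IL1B. The TGFB1 panel shows 18 lowered ADAMTS1 peaks, and the TNF panel the ADAMTS9 peak at 2.98 and the ADAMTS9-AS1 peak at -2.35.

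The ADAMTS9-AS1 peak behind the choice of the genes (chr3:64548185-64548685) was called for 4 of the other 9 cytokines. It lay 12.9 kb before the start of ADAMTS9-AS1, in an intron of ADAMTS9. In unstimulated libraries it held 20.1, 28.5, 29.4 and 21.3 per Mb, against 4.26, 4.22, 5.74 and 3.63 with TNF and 10.4, 9.32, 9.69 and 7.53 with TGFB1. Every TNF and TGFB1 library lay below every unstimulated one, and the TNF libraries below the TGFB1 libraries. The unstimulated libraries also entered the IL1B comparison that chose this peak. Tests of the peak against them are therefore not independent of the choice. TNF lowered the peak by a log2 change of -2.35 (SE 0.16, limma adjusted p = 3.39e-32), or 5.56-fold. TGFB1 lowered it by -1.37 (limma adjusted p = 1.51e-12), and TGFB1 stood 0.98 above TNF (limma adjusted p = 6.38e-07).

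IL13 moved the same peak the other way. IL13 libraries held 49.2, 31.3, 44.9 and 52.2 per Mb, all above the unstimulated range, a log2 change of 0.82 (limma adjusted p = 0.000242). IFNA libraries held 15.4, 16.0, 14.8 and 10.9 per Mb, all below that range, a change of -0.77 (limma adjusted p = 0.00157). These calls with TNF, TGFB1, IL13 and IFNA held under each of the alternatives run. All of them used the unstimulated libraries that had entered the choice of the peak. With IL1B, which led to the choice of these genes, the peak held 4.31, 4.42, 4.11 and 2.91 per Mb.

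The remaining groups overlapped the unstimulated libraries at this peak. OSM libraries held 19.2, 21.2, 25.4 and 19.8 per Mb (log2 change -0.2, limma adjusted p = 0.541) and lay 2.15 above TNF (limma adjusted p = 7.05e-29). IL6 held 28.1, 30.2, 31.1 and 41.8, the last in the shallowest library, and IL22 held 29.5, 30.0, 29.5 and 23.4. IFNG held 17.4, 25.5, 22.1 and 16.9 and IL17A 22.3, 16.5, 23.7 and 18.7. From the top, the group means ran IL13, IL6, IL22, unstimulated, OSM, IFNG, IL17A, IFNA, TGFB1, TNF and IL1B, and neighbours in this order overlapped in their libraries from IL13 to IL17A and again between TNF and IL1B.

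**Figure D2:**
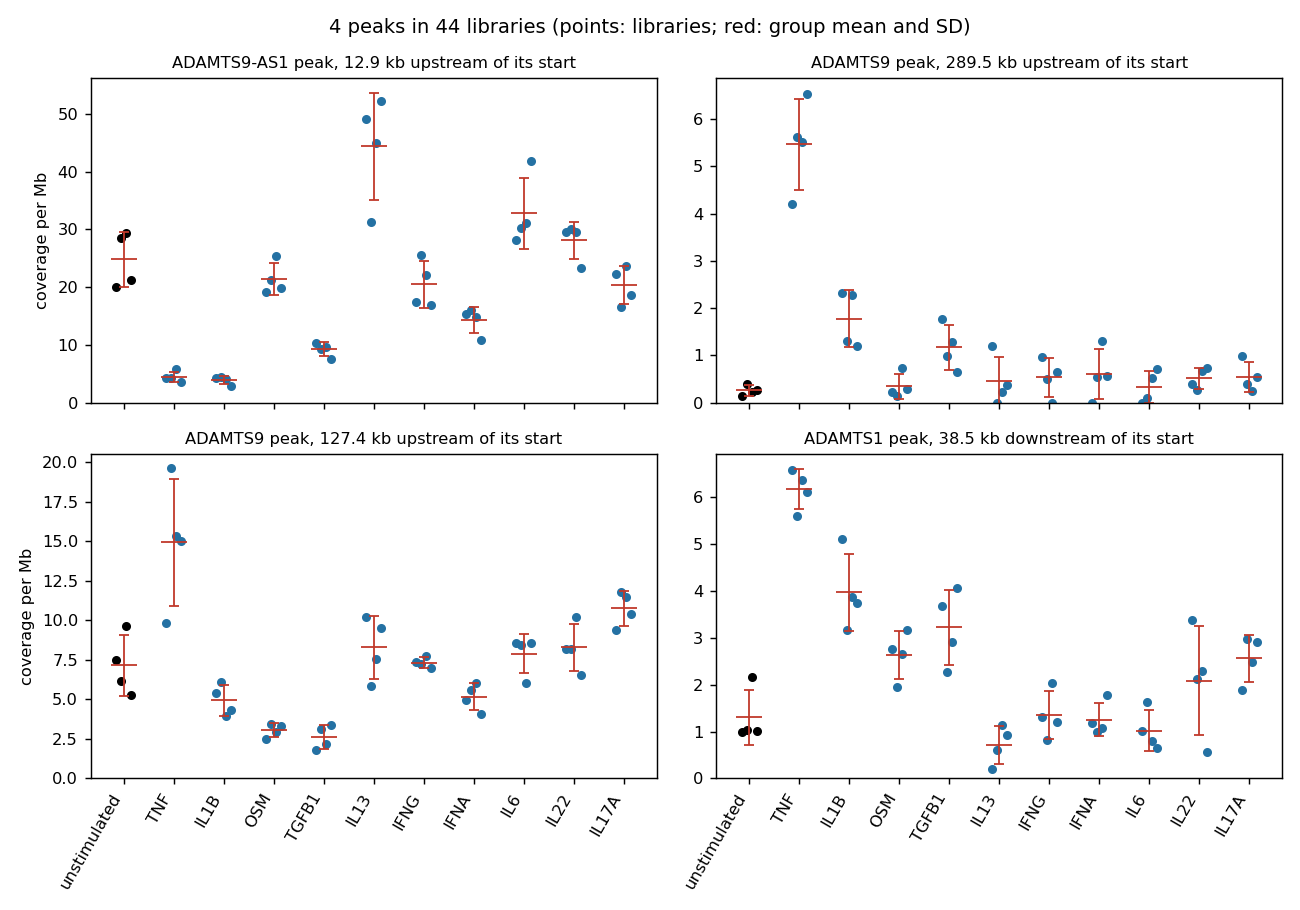
Coverage per Mb in each of the 44 libraries (points) with the group mean and SD (red, n = 4) for 4 peaks: the ADAMTS9-AS1 peak 12.9 kb upstream of its start, ADAMTS9 peaks 289.5 and 127.4 kb upstream of its start, and the ADAMTS1 peak 38.5 kb from its start, past its 3′ end. TNF sits near the bottom in the ADAMTS9-AS1 panel (mean 4.46) and at the top in the other 3.

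The ADAMTS9-AS1 promoter itself was barely open. Its promoter-class peak (chr3:64559537-64560037) had a mean of 0.608 per Mb over all libraries, near the floor of 3 reads, and was called for no cytokine. The 58 ADAMTS9-AS1 peaks had a median level of 0.407 per Mb. Besides the peak above, TGFB1 lowered 2 of them and TNF lowered 1, and OSM raised 2. With that peak counted, TGFB1 lowered 5.17% (beside 2.87% of all tested peaks) and TNF 3.45% (beside 1.46%). The OSM-raised share was 3.45% (beside 4.13%).

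ADAMTS9, a proteoglycan-cleaving family member, and ADAMTS9-AS2 start about 3 kb apart on opposite strands, and peaks on both sides of that shared start closed with TGFB1. The ADAMTS9 promoter peak (chr3:64687939-64688439) held 21.7, 21.8, 22.3 and 17.5 per Mb in unstimulated libraries and 12.1, 12.1, 9.4 and 7.8 with TGFB1, with no overlap. In bulk libraries a lower level in every cell and a loss in some of the cells cannot be told apart. The log2 change was -0.99 (SE 0.15, limma adjusted p = 1.25e-07). TNF libraries held 12.3, 13.2, 15.6 and 14.7 per Mb, also all below the unstimulated range (change -0.56, limma adjusted p = 0.00929), a call lost without TNF replicate 1 (0.0592). OSM libraries, at 23.9, 24.1, 24.3 and 22.4 per Mb, stood above all of these and differed from TNF by 0.75 (limma adjusted p = 7.84e-05) but not detectably from unstimulated cells (0.18, limma adjusted p = 0.549).

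The best covered peak of ADAMTS9-AS2 lay 1.0 kb inside it (chr3:64685696-64686196). It held 37.8, 41.5, 37.8 and 35.5 per Mb in unstimulated libraries and 22.3, 27.3, 24.0 and 21.2 with TGFB1, again with no overlap (change -0.68, limma adjusted p = 1.9e-06). The ADAMTS9-AS2 promoter peak (chr3:64684735-64685235) fell from 13.0 ± 1.60 per Mb (SD, n = 4) to 7.65 ± 1.48 with TGFB1 (change -0.74, limma adjusted p = 0.00305) and to 7.66 ± 1.34 with TNF (change -0.73, limma adjusted p = 0.00282). The TGFB1 call at this promoter was lost with loess offsets (0.106). Over the 3 genes of the locus TGFB1 lowered 14 of 240 peaks (5.83%, beside 2.87% of all tested peaks), or 9 under median-of-ratios scaling (beside 1.46%). Of the 14, 8 were assigned to ADAMTS9, 3 to ADAMTS9-AS1 and 3 to ADAMTS9-AS2. TGFB1 raised 2 peaks of the locus.

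Far upstream of ADAMTS9, inside introns of ADAMTS9-AS2, single peaks moved in opposite directions. A peak 289.5 kb from the ADAMTS9 start held 0.131, 0.394, 0.227 and 0.27 per Mb in unstimulated libraries, under the level of 3 reads in each. With TNF it held 4.2, 5.63, 5.51 and 6.53, above every library of every other group. The log2 change was 2.98 (SE 0.39, limma adjusted p = 1.92e-10), on a scale where a level under 3 reads makes the size depend on the pseudocount. It was the largest change among the 579 peaks over the 9 cytokines other than IL1B with pseudocounts of 0.5 and 0.1 (4.0 with the latter), but with a pseudocount of 2 it was 1.72 and the TNF change of the ADAMTS9-AS1 peak, -2.05, was larger. TNF exceeded TGFB1 (the log2 change of TGFB1 against TNF was -1.87, limma adjusted p = 0.00024, lost with a pseudocount of 0.1 at 0.0588), and OSM lay 2.86 lower than TNF on that scale (OSM against TNF -2.86, limma adjusted p = 6.03e-10). IL1B libraries held 2.31, 1.31, 2.28 and 1.2.

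The peak at chr3:64815112-64815612, 127.4 kb upstream, responded to 3 cytokines in different directions. Unstimulated libraries held 7.5, 6.18, 9.64 and 5.25 per Mb. TNF libraries held 9.83, 19.6, 15.3 and 15.0, all higher (change 1.01, limma adjusted p = 0.000475). OSM libraries held 2.47, 3.44, 2.93 and 3.34, all lower (change -1.08, limma adjusted p = 0.000169), and so were TGFB1 libraries at 1.81, 3.12, 2.17 and 3.4 (change -1.29, limma adjusted p = 3.43e-06). Tested directly, TGFB1 differed from TNF by -2.3 (limma adjusted p = 1.23e-18) and OSM from TNF by -2.09 (limma adjusted p = 4.48e-16), while OSM against TGFB1 gave 0.21 (limma adjusted p = 0.544). IL1B libraries held 5.42, 6.09, 3.95 and 4.3 per Mb.

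A neighbour 161.0 kb upstream (chr3:64848748-64849248) fell with both TNF and TGFB1. It held 18.9, 22.5, 17.3 and 10.1 per Mb in unstimulated libraries and 9.75, 3.63, 7.44 and 8.82 with TGFB1 (change -1.19, limma adjusted p = 2.02e-08). TNF libraries held 8.31, 9.08, 11.9 and 11.3, which overlapped unstimulated replicate 4 (change -0.69, limma adjusted p = 0.00349). The TNF call was lost without unstimulated replicate 2 (0.0831). These upstream peaks, except the one 289.5 kb away, were named after their values were seen. A lowered peak named by rule, 403.1 kb upstream (chr3:65090866-65091366), held 1.84, 0.683, 1.8 and 1.66 per Mb unstimulated and 0.321, 0.0, 0.0 and 0.391 with TNF (change -1.56, limma adjusted p = 0.00246). TNF replicates 1, 2 and 3 lay under the level of 3 reads there (0.583, 0.609 and 0.591). The call held under each alternative, but the size of the change ran from -2.81 to -0.67.

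**Figure D3:**
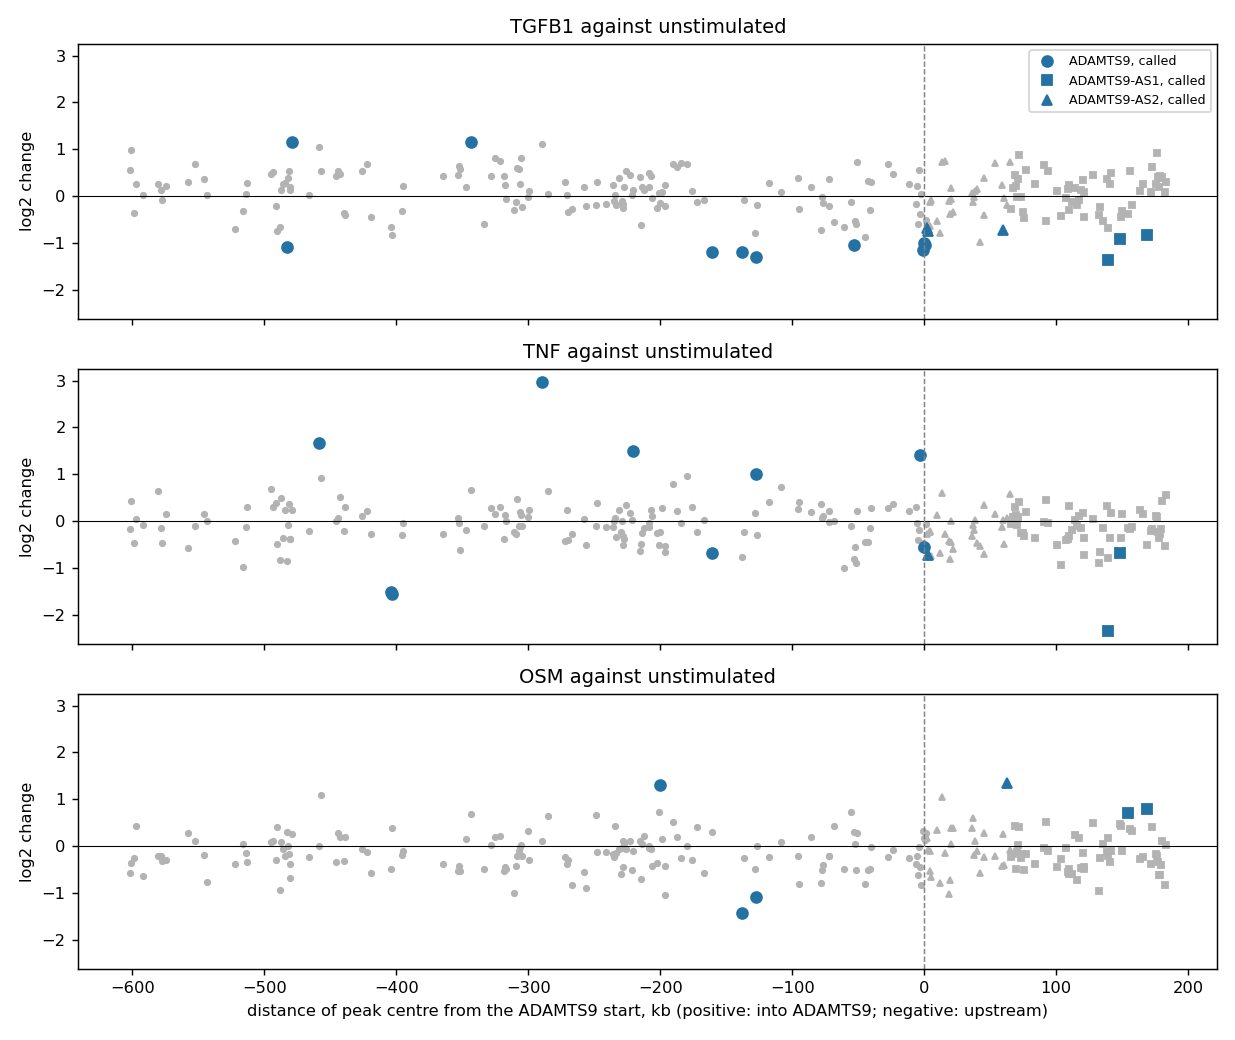
Log2 change against unstimulated cells for the peaks of ADAMTS9 (circles), ADAMTS9-AS1 (squares) and ADAMTS9-AS2 (triangles), placed by distance from the ADAMTS9 start (dashed line) in kb, with called peaks in blue and the others in grey, for TGFB1, TNF and OSM. Lowered TGFB1 calls gather at the start, where the promoter peak changed by -0.99, and the TNF-raised peak at 2.98 stands alone 289.5 kb upstream.

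ADAMTS1, a proteoglycan-cleaving member on chr21:26835755-26845409 (minus strand), held the densest set of TGFB1-lowered peaks. TGFB1 lowered 18 of its 76 peaks (23.7%, beside 2.87% of all tested peaks) and raised 1 (1.32%, beside 1.1%). Of the 18, 13 were neighbours from chr21:26832983 to chr21:26841862, a stretch of 8.9 kb over the 3′ flank and most of the gene body. All 13 peaks of that stretch were lowered, with changes from -1.97 to -0.87. The bounds of the stretch were set after the values were seen, and neighbouring peaks 5 to 584 bases apart can share fragments, so the 13 are not independent measurements.

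Summed over the 13 peaks, coverage was 94.2, 101.7, 98.0 and 86.4 per Mb in unstimulated libraries. TGFB1 libraries held 31.7, 32.5, 31.2 and 27.9, below every other library of the study. TNF libraries held 53.3, 52.5, 60.4 and 58.4, and IFNG libraries 67.0, 67.8, 71.0 and 57.9, both below the unstimulated range. OSM libraries held 141.1, 136.8, 119.3 and 123.9, all above it. IL17A libraries, at 126.2, 123.3, 117.6 and 102.0, also lay above it, the last by little, although IL17A was called at 0 of the 13 peaks. IL1B libraries held 67.8, 56.9, 65.3 and 63.6.

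Peak by peak, TNF lowered 3 of the 13 and IFNG 2, while OSM raised 1. All 13 lay below 0 with TNF (changes -1.1 to -0.12) and 12 with IFNG (-1.17 to 0.05). Against TNF, TGFB1 lowered 7 of the 13 and OSM raised 12, a count that fell to 6 with median-of-ratios scaling and to 7 with library totals or loess offsets. OSM exceeded TGFB1 at all 13 (changes 1.25 to 2.67), and at all 13 under those scalings too. The OSM-raised peak (chr21:26835859-26836359, at the 3′ end of the gene) rose from 7.81 ± 1.36 to 15.7 ± 1.82 per Mb (SD, n = 4, change 0.97, limma adjusted p = 0.00106), and this call was lost with loess offsets (0.0547).

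The best covered peak of the stretch, just past the 3′ end of ADAMTS1 and chosen after its values were seen, held 26.4, 21.8, 25.2 and 20.9 per Mb in unstimulated libraries. TGFB1 libraries held 7.05, 6.3, 8.33 and 6.78 (change -1.66, SE 0.15, limma adjusted p = 1.16e-19), or 3.31-fold lower. TNF libraries held 8.54, 9.48, 10.8 and 14.7 (change -1.1, limma adjusted p = 1.2e-09). Both groups lay below all unstimulated libraries, and OSM libraries, at 37.1, 31.1, 27.4 and 30.6, above them (change 0.41, limma adjusted p = 0.093). OSM and TGFB1 differed by 2.07 (limma adjusted p = 1.18e-29).

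The largest fall in the main fit was at chr21:26841362-26841862, an exonic peak 3.8 kb into the gene. It held 5.09, 4.38, 3.85 and 3.27 per Mb in unstimulated libraries and 0.662, 1.11, 0.194 and 0.985 with TGFB1, a change of -1.97 (SE 0.28, limma adjusted p = 7.88e-09). TGFB1 replicates 1 and 3 lay under the level of 3 reads (0.665 and 0.582). Over the alternatives the change ran from -2.51 to -1.17, beside -1.75 to -1.35 at the best covered peak of the stretch, so the rank depends on the processing. The next 5 peaks towards the start, from chr21:26842136 to chr21:26845041, included 0 called with TGFB1. Their summed coverage was 46.4, 45.0, 47.6 and 46.4 per Mb unstimulated and 44.7, 39.0, 46.8 and 34.6 with TGFB1, which overlap. With OSM it was 67.0, 65.4, 65.3 and 63.1, above the unstimulated range, and 1 of the 5 was called raised. IL13 libraries, at 61.83, 49.22, 55.96 and 51.55, lay above that range too, with 0 of the 5 called.

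At the ADAMTS1 start and promoter TGFB1 again lowered all 3 peaks (chr21:26845043 to chr21:26846933, changes -1.12 to -0.7). Summed, they held 38.7, 43.6, 45.8 and 34.4 per Mb in unstimulated libraries and 21.1, 24.6, 20.2 and 20.2 with TGFB1. With TNF the 3 peaks changed by -0.28 to -0.09 and 0 were called, and TGFB1 against TNF lowered all 3. The best covered promoter peak (chr21:26846433-26846933) fell from 12.8 ± 1.77 to 5.67 ± 0.936 per Mb (SD, n = 4, change -1.12, limma adjusted p = 1.05e-06).

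**Figure D4:**
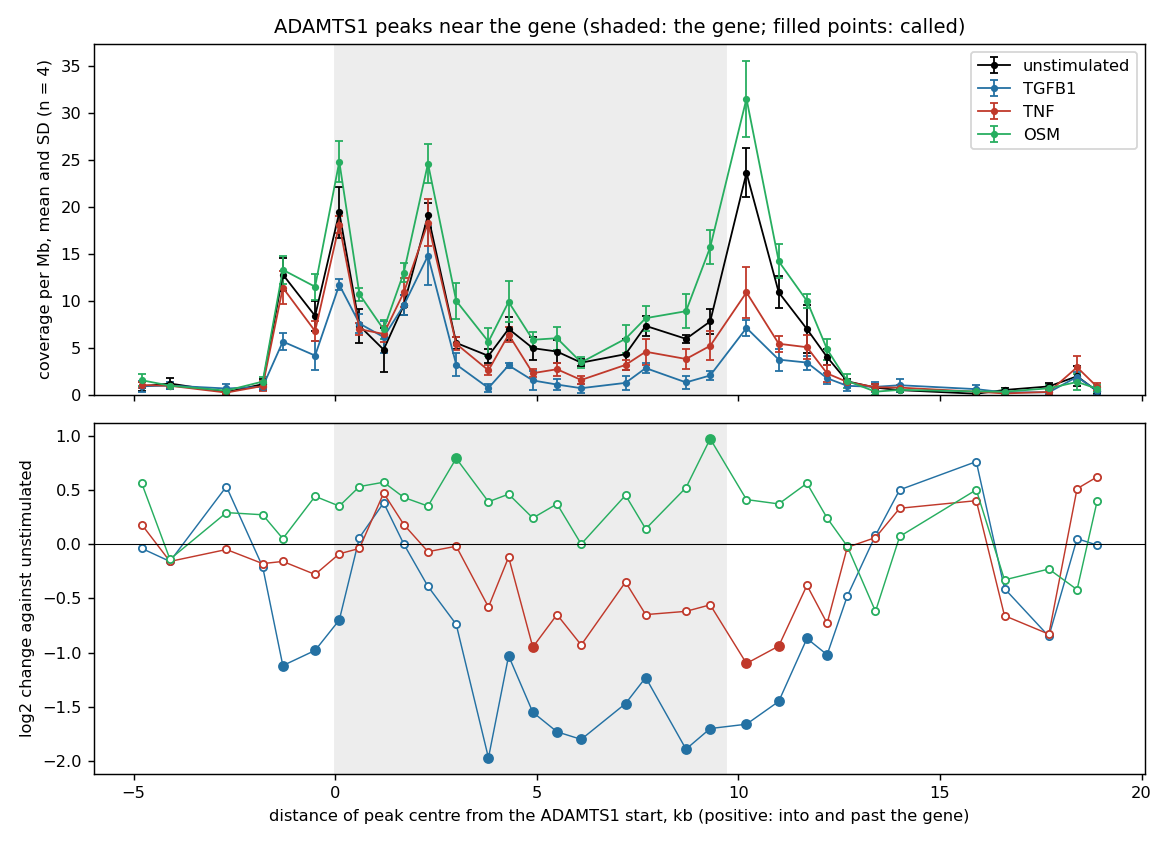
Upper panel, mean coverage per Mb with SD (n = 4) of peaks near ADAMTS1 by distance of the peak centre from its start in kb, with the gene shaded, for unstimulated, TGFB1, TNF and OSM libraries. Lower panel, the log2 change of each peak against unstimulated cells, filled where called. TGFB1 points lie between -1.97 and -0.87 over the 13 peaks at the 3′ end and between -1.12 and -0.7 over the 3 at the start.

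A peak 38.5 kb from the ADAMTS1 start, past its 3′ end in a stretch without genes (chr21:26806685-26807185), opened instead. Unstimulated libraries held 0.989, 1.03, 2.17 and 1.02 per Mb and TNF libraries 6.58, 5.6, 6.37 and 6.11, with no overlap (change 1.93, SE 0.32, limma adjusted p = 8.38e-07). TGFB1 libraries held 3.67, 2.27, 2.9 and 4.05, all above the unstimulated range (change 1.07, limma adjusted p = 0.029), but this call was lost under 8 of 18 alternatives, among them leaving out unstimulated replicate 1, 2 or 4 or TGFB1 replicate 1, 3 or 4 (limma adjusted p up to 0.123). IL1B libraries held 5.11, 3.17, 3.87 and 3.73. OSM against TNF was -1.1 (limma adjusted p = 0.013), which a pseudocount of 0.1 or leaving out OSM replicate 2 took past the threshold (up to 0.071).

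ADAMTS4, a further aggrecan-cleaving member, had 11 peaks, of which 10 lay upstream of its start. OSM raised 2 of the 11 (18.2%, beside 4.13% of all tested peaks), and TGFB1 lowered 1 (9.09%, beside 2.87%). The peak 2.6 kb upstream held 9.11, 10.7, 10.8 and 9.37 per Mb unstimulated and 19.3, 19.1, 18.1 and 18.9 with OSM (change 0.89, SE 0.18, limma adjusted p = 0.000135), a rise that held under each alternative. The promoter peak (chr1:161198899-161199399) held 13.0, 11.7, 18.0 and 13.4 unstimulated and 19.3, 20.0, 27.3 and 20.9 with OSM (change 0.62, limma adjusted p = 0.00833), a call lost under the other scalings of the libraries and without unstimulated replicate 2 or OSM replicate 3 (limma adjusted p up to 0.437). TGFB1 lowered 1 ADAMTS4 peak, 3.2 kb upstream, from 28.5 ± 3.77 to 20.8 ± 1.94 per Mb (SD, n = 4, change -0.44, limma adjusted p = 0.0252), a call lost under 9 of 18 alternatives, among them leaving out unstimulated replicate 2 or 3 or TGFB1 replicate 2 or 3 (limma adjusted p up to 0.837).

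ADAMTS5, the other main aggrecanase, had calls in both directions. TGFB1 and IL13 both lowered its promoter peak (chr21:26966839-26967339). It held 17.1, 11.5, 11.6 and 12.7 per Mb in unstimulated libraries, 8.92, 9.27, 6.01 and 8.44 with TGFB1 and 7.06, 7.68, 7.95 and 10.3 with IL13, with no overlap for either. The changes were -0.66 (limma adjusted p = 0.0107) and -0.65 (limma adjusted p = 0.0311), and leaving out unstimulated replicate 1 lost both calls. The TGFB1 call was also lost under 3 other scalings and without TGFB1 replicate 3 (limma adjusted p up to 0.249), and the IL13 call without unstimulated replicate 4 or IL13 replicate 1, 2 or 3 (up to 0.214). TGFB1 also lay below TNF there (-0.73, limma adjusted p = 0.00269), a call lost with loess offsets.

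OSM lowered 4 of the 64 ADAMTS5 peaks (6.25%, beside 1.05% of all tested peaks), 3 of them upstream of the gene. It raised 2 (3.12%, beside 4.13%). At chr21:27248773-27249273, 281.9 kb upstream, unstimulated libraries held 3.12, 3.94, 2.31 and 4.87 per Mb and OSM libraries 0.851, 0.46, 0.623 and 1.2 (change -1.65, SE 0.33, limma adjusted p = 9.54e-05). IL6 lowered the same peak by -1.63 (limma adjusted p = 0.00731), the only IL6 call among the 579 peaks. That call was lost without IL6 replicate 4, the shallowest library (change -1.18, limma adjusted p = 0.418), and without unstimulated replicate 4 (0.0878). A peak 80.4 kb upstream, named after its values were seen (chr21:27047195-27047695), held 7.13, 9.61, 8.27 and 9.48 per Mb unstimulated. It held 4.74, 2.1, 2.78 and 4.66 with OSM (change -1.22, limma adjusted p = 3.59e-05) and 3.7, 4.75, 3.12 and 5.34 with TNF (change -0.96, limma adjusted p = 0.00187), both groups below all unstimulated libraries. About 2 kb from the OSM-lowered peak, TGFB1 raised chr21:27246687-27247187 from 1.23 ± 0.624 to 3.87 ± 1.01 per Mb (SD, n = 4, change 1.37, limma adjusted p = 0.00325).

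ADAMTS2, the procollagen N-proteinase, held the best covered of the 579 peaks, and that peak was called for no cytokine. This intronic peak (chr5:179265494-179265994, 79.7 kb from the start) held 49.2, 54.3, 57.6 and 46.5 per Mb unstimulated, 44.0, 42.7, 52.2 and 46.1 with TNF, 56.1, 65.0, 47.0 and 44.3 with OSM and 40.4, 42.7, 45.2 and 40.0 with TGFB1. Of the 100 ADAMTS2 peaks, TNF called 4 (4%, beside 4.14% of all tested peaks) and OSM 3 (3%, beside 5.18%). TGFB1 called 4 (4%, beside 3.97%). These shares lay near or below those of all tested peaks. The ADAMTS2 promoter peak (chr5:179345319-179345819) was low and was raised by 4 cytokines. It held 2.38, 0.915, 3.08 and 1.72 per Mb unstimulated, 3.67, 3.61, 4.71 and 4.64 with TNF, 5.14, 5.55, 4.75 and 3.98 with OSM and 4.82, 5.4, 4.22 and 5.45 with IL13, none overlapping. The changes were 0.96 (limma adjusted p = 0.0191), 1.16 (limma adjusted p = 0.00217) and 1.19 (limma adjusted p = 0.00412), and IL22, at 5.68 ± 1.33 per Mb (SD, n = 4), gave 1.35 (limma adjusted p = 0.00733), its only call among the 579 peaks. All 4 calls were lost without unstimulated replicate 2, the library with the lowest value, where the limma adjusted p rose to 0.0514 for OSM, 0.0899 for IL13, 0.156 for IL22 and 0.23 for TNF. The TNF call was also lost without unstimulated replicate 4 or TNF replicate 3 or 4, the IL22 call without IL22 replicate 2 or 4, and those with TNF, OSM and IL22 with the GC correction.

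Further ADAMTS2 peaks lay upstream of the gene. OSM raised chr5:179378773-179379273, 33.6 kb upstream, from 1.34, 0.569, 0.651 and 1.35 per Mb to 4.87, 3.54, 3.44 and 2.12 (change 1.44, limma adjusted p = 0.00176). A peak named after its values were seen (chr5:179393069-179393569) held 1.42, 0.647, 0.745 and 1.79 per Mb unstimulated and 3.03, 3.83, 4.91 and 3.47 with TNF (change 1.43, limma adjusted p = 0.0011). TGFB1 (change 1.18, limma adjusted p = 0.0147) and IFNA (change 1.43, limma adjusted p = 0.00673) raised it too, both calls being lost with a pseudocount of 0.1, without unstimulated replicate 2 or 3, and without TGFB1 replicate 1 or 4 or IFNA replicate 2 or 4 in turn (limma adjusted p up to 0.0929).

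ADAMTS6 is a member that acts on fibrillin-rich microfibrils. TNF and OSM both raised 4 of its 33 peaks (12.1% each, beside 2.68 and 4.13% of all tested peaks). All 4 were intronic, between 65190302 and 65209768 on chromosome 5. The best covered of them (chr5:65190302-65190802) held 23.6, 20.9, 21.3 and 20.1 per Mb unstimulated, 35.9, 32.5, 31.2 and 29.8 with TNF (change 0.58, limma adjusted p = 0.0019) and 34.8, 30.9, 28.4 and 27.0 with OSM (change 0.48, limma adjusted p = 0.0167). Neither treated group overlapped the unstimulated libraries. The other 3, named after their values were seen, start at 65198690, 65203696 and 65209268 and changed by 0.73, 0.97 and 0.92 with TNF (limma adjusted p = 0.0011, 0.00217 and 0.00993) and by 0.61, 1.06 and 0.98 with OSM (limma adjusted p = 0.0103, 0.000635 and 0.00437). At 65203696 both calls were lost without unstimulated replicate 4 (limma adjusted p 0.155 for TNF and 0.0693 for OSM), and at the other 3 peaks the OSM calls were lost under median-of-ratios scaling and loess offsets (up to 0.761). Leaving out unstimulated replicate 4 also lost the OSM calls at 65190302 and 65198690, as did OSM replicates 1 and 2 for the former and 3 for the latter. The TNF call at 65209268 was lost without unstimulated replicate 3 or TNF replicate 2 or 3 (up to 0.0935). The ADAMTS6 promoter peak (chr5:65481709-65482209), at 15.8 per Mb over all libraries, was called for no cytokine.

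Single ADAMTS6 peaks moved with other cytokines. TGFB1 raised chr5:65172447-65172947 from 1.30 ± 0.334 to 3.52 ± 0.366 per Mb (SD, n = 4, change 1.18, limma adjusted p = 0.0354), a call lost under 9 of 18 alternatives, leaving out any single TGFB1 library among them (limma adjusted p up to 0.19). IFNA lowered chr5:65152070-65152570 from 3.20 ± 0.361 to 1.03 ± 0.390 per Mb (SD, n = 4, change -1.31, limma adjusted p = 0.00803), a call lost without IFNA replicate 1 (0.0716).

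Of the 55 ADAMTS12 peaks, TNF raised 3, all intronic, and lowered 1 (7.27% called, beside 4.14% of all tested peaks). The lowered peak was distal, 9.2 kb upstream of the start, and changed by -1.16. At chr5:33690765-33691265, 201.0 kb into the gene, unstimulated libraries held 2.11, 1.47, 0.654 and 1.47 per Mb and TNF libraries 4.81, 4.29, 6.33 and 6.37, with no overlap (change 1.67, SE 0.34, limma adjusted p = 0.000135). OSM libraries, at 1.28, 1.75, 0.79 and 1.06, did not follow, and OSM against TNF was -1.8 (limma adjusted p = 1.61e-05). IL1B libraries held 3.91, 2.65, 2.81 and 4.47. A better covered peak (chr5:33788883-33789383), named after its values were seen, held 15.2, 14.1, 18.6 and 12.7 per Mb unstimulated and 26.1, 22.1, 24.7 and 30.4 with TNF (change 0.75, limma adjusted p = 0.000239). The best covered ADAMTS12 promoter peak (chr5:33891965-33892465) was called for no cytokine. A promoter-class peak 0.9 kb upstream of the start (chr5:33892655-33893155) held 2.35, 3.83, 4.7 and 3.58 per Mb unstimulated and 1.89, 1.82, 1.29 and 0.433 with IL1B, given as a description.

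**Figure D5:**
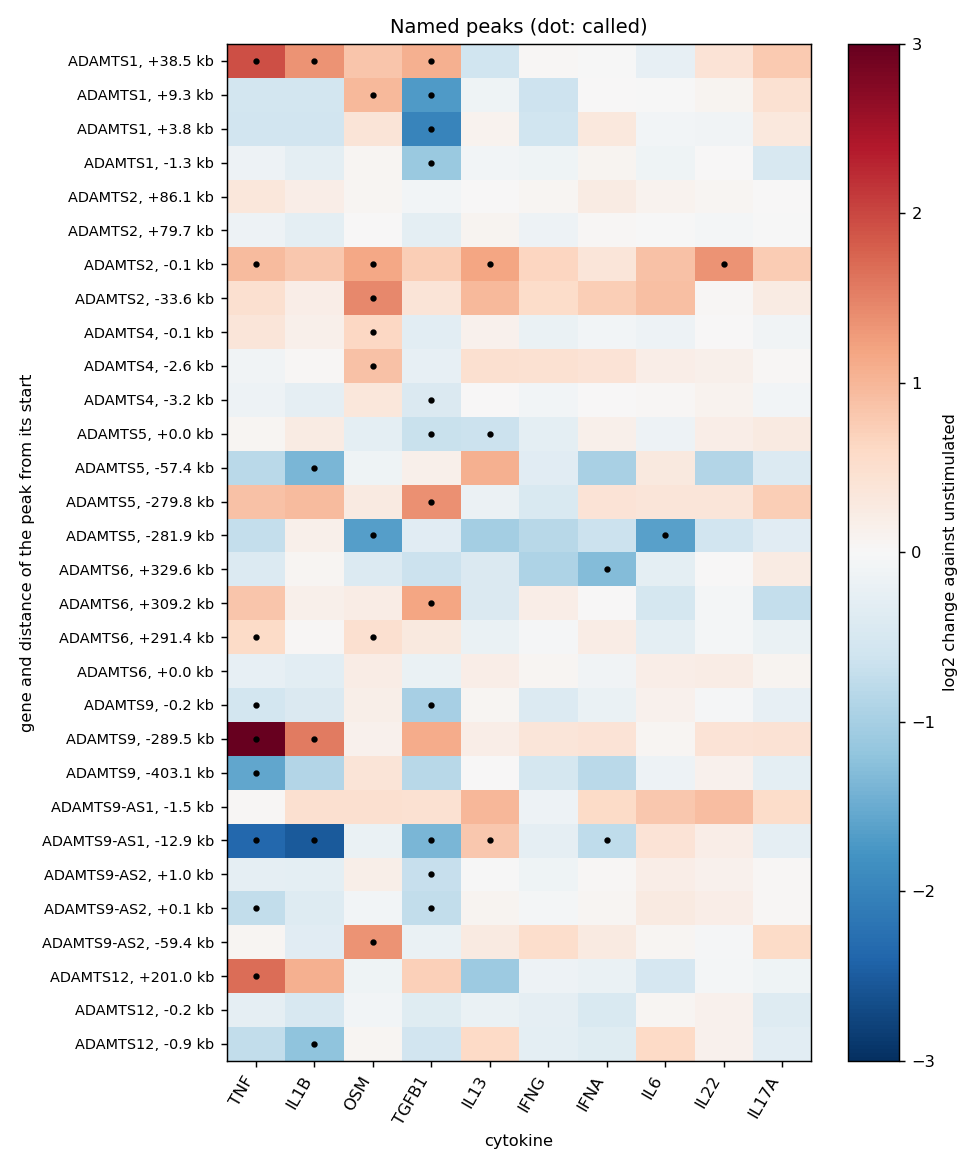
Log2 change against unstimulated cells (colour) of the peaks named by rule (lines, by gene and distance from its start in kb) under each of the 10 cytokines (columns), with a dot where a peak was called. The ADAMTS9-AS1 peak at -12.9 kb runs from -2.35 with TNF to 0.82 with IL13, and the IL17A column holds no dot.

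Comparing cytokines directly, at equal doses, 3 pairs were tested. OSM against TNF gave 40 raised and 15 lowered of the 579 peaks (9.5%, beside 7.23% of all tested peaks), OSM against TGFB1 gave 61 and 19 (13.8%, beside 14.7%), and TGFB1 against TNF gave 3 and 30 (5.7%, beside 4.79%). With median-of-ratios scaling, which moved the median over all peaks by -0.1, -0.21 and 0.12, these became 17 and 24, 40 and 59, and 10 and 20. Over all tested peaks that scaling gave 2.34% raised and 3.32% lowered, 3.44 and 10.9%, and 2.06 and 1.97%. At ADAMTS1, OSM against TGFB1 raised 20 peaks (26.3%, beside 9.92% of all tested peaks) and lowered 0. With median-of-ratios scaling it raised 18 (beside 3.44%) and lowered 0. OSM against TNF raised 15 ADAMTS1 peaks (19.7%, beside 4.74%) and lowered 1, but 6 (beside 2.34%) and 2 with that scaling. TGFB1 against TNF lowered 11 ADAMTS1 peaks (14.5%, beside 3.74%) and raised 0, and 9 (beside 1.97%) and 0 with that scaling.

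TGFB1 called 6 of the 24 promoter-class peaks (25.0%, beside 9.29% of the 29105 tested promoter-class peaks), TNF 3 (12.5%, beside 2.54%) and OSM 2 (8.33%, beside 9.77%). These shares are of the main fit alone. The TNF calls were the ADAMTS9 and ADAMTS9-AS2 promoter peaks at their shared start and the ADAMTS2 promoter peak. Those at ADAMTS9 and ADAMTS2 were lost when a library was left out. The TGFB1 calls also included neighbouring peaks at the shared start, so calls are not independent. Of the 48 peaks called with TGFB1, 20 lay inside the gene they were named for, as did 12 of 33 with TNF and 10 of 26 with OSM.

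Other genes of the family and its substrates were counted in the same fit, from lists chosen with earlier results of these data known. Among 359 peaks of 12 other ADAMTS genes, TNF raised 9 and lowered 4 (3.62%, beside 4.14% of all tested peaks), OSM raised 20 and lowered 5 (6.96%, beside 5.18%) and TGFB1 raised 2 and lowered 11 (3.62%, beside 3.97%). With median-of-ratios scaling the splits became 5 and 5 for OSM and 11 and 5 for TGFB1. Among 239 peaks of 7 ADAMTS-like genes, which encode relatives without the protease domain, TNF raised 8 and lowered 1 (3.77%), OSM raised 11 and lowered 3 (5.86%) and TGFB1 raised 3 and lowered 3 (2.51%), and with median-of-ratios scaling OSM gave 5 and 3 and TGFB1 6 and 0. Among 796 peaks of 19 substrates and regulators, such as VCAN, ACAN and the TIMP inhibitors, TNF raised 23 and lowered 32 (6.91%), OSM raised 29 and lowered 12 (5.15%) and TGFB1 raised 8 and lowered 22 (3.77%), and with median-of-ratios scaling OSM gave 10 and 18 and TGFB1 13 and 12. The median log2 change with TGFB1 was 0.04 over the 579 peaks, 0.08, 0.07 and 0.03 over the 3 lists and 0.05 over all tested peaks.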

How the data were processed

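Omni-ATAC libraries of Ccd18-Co cells (44 libraries, 11 groups of 4) were measured. The authors aligned reads to hg38 with the ENCODE ATAC-seq pipeline, and the submitters' processing notes name MACS2. The deposited values are a signal, the unscaled sum of read coverage along each 500-base peak, with a gene and a class in each peak's name. How peaks were selected is not given in the sources used here. Coverage follows whole reads (75 bases, the most frequent low value) and not the transposase cut site, which widens each insertion.

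Each value was scaled to Mb of summed coverage in its library and then by a composition factor (trimmed mean of log ratios, 30% of ratios and 5% of means trimmed at each end), 0.5 was added and log2 taken, a scale that understates changes of low peaks. Peaks with a log2 mean of -3 or less (209) were left out. limma 3.58.1 in R 4.3.3 was fitted to all 44 libraries with group as the only term and a trended eBayes prior, p-values being adjusted by Benjamini-Hochberg over all tested peaks of a comparison. The study's own tests used counts, but coverage sums are not counts, so no count model was run. The fit was tested on simulated data with known folds in a few peaks and the same spread setting for all peaks. That simulation held no general shift between groups, so it cannot speak to the dependence on scaling. Levels are coverage per Mb after the composition factor. Floors cover counting error only.

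The members, lists and named peaks were chosen with earlier results of these data known. Named per gene were the best covered promoter-class peak and the most raised and most lowered called peaks whose libraries did not overlap, then the best covered and the most variable peaks of all 579. Peaks past the threshold with IL1B were counted in this naming and in that of the related lists. Alternatives changed the scaling, GC correction, pseudocount, filter, the libraries in the fit and the replicate block. A peak's gene and class are those of the deposited table, and GENCODE v44 gave gene positions. Likeness between peaks was Pearson's r over the 11 group means. The sequences of some named peaks are not reported here.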

Additional observations from a re-analysis of the deposited data

Results flagged for a closer look

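In 440 sets of 4 libraries, 24 held a library farther from its nearest neighbour than Dixon's 95% limit allows, and chance flags about 1 in 20 such sets. Library totals stood out for IFNA replicate 2 (823.1 Mb, others 325.2 to 390.5), TNF replicate 4 (726.6 Mb, others 373.4 to 388.8) and IFNG replicate 2 (657.5 Mb, others 420.8 to 452.7). The other 21 were levels, in coverage per Mb, of single peaks, each named here by its start.

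Among unstimulated libraries the levels were 17.5 in replicate 4 at the ADAMTS9 promoter peak 64687939 (others 21.7 to 22.3), 0.683 in replicate 2 at ADAMTS9 65090866 (others 1.66 to 1.84) and 2.17 in replicate 3 at ADAMTS1 26806685 (others 0.989 to 1.03). At the ADAMTS9-AS1 peak 64548185, IL22 replicate 4 held 23.4 (others 29.5 to 30.0). Also at that locus, IFNA replicate 4 held 1.34 at ADAMTS9-AS1 64559537, IL13 replicate 2 held 1.23 at ADAMTS9-AS2 64625254, IL13 replicate 3 held 18.1 at ADAMTS9-AS2 64684735, IFNG replicate 2 held 31.6 at ADAMTS9-AS2 64685696 and IL6 replicate 3 held 6.01 at ADAMTS9 64815112.

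IL6 replicate 4, the shallowest library, held 1.78 at ADAMTS1 26841362 (others 4.68 to 5.15) and 10.4 at ADAMTS12 33892655 (others 3.89 to 4.9). IL17A replicate 4 held 20.7 at the ADAMTS1 peak just past the 3′ end (others 31.6 to 32.8). At ADAMTS6, IL1B replicate 1 held 23.8 and IFNA replicate 3 held 20.4 at 65190302, IFNG replicate 1 held 11.0 at 65198690, and OSM replicate 4 held 6.76 at 65203696 (others 12.8 to 13.9). At ADAMTS2, IL1B replicate 3 held 31.7 at 179259155 and 4.33 at 179345319, and IFNG replicate 1 held 28.2 at 179259155. At ADAMTS5, IFNG replicate 1 held 8.67 at 26966839 (others 11.2 to 11.3) and TGFB1 replicate 2 held 8.43 at 27047195 (others 5.85 to 5.92).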

How the results depend on the processing

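IL1B counts are descriptions here too. Of 106 calls at named peaks without IL1B against unstimulated, 55 held under every alternative and 51 were lost under at least 1, 10 of these only when a library was left out. Counts of called peaks kept within 1.5 times the main count under most alternatives. The exceptions were OSM (26) with library totals (17), median-of-ratios scaling (16), loess offsets (17) and a composition factor over peaks covered in every library, chosen after seeing the data (16), IL1B (18) when only its own groups were fitted (28), IFNG (8) with a pseudocount of 0.1 (5), IL22 (1) with the GC correction (0), OSM against TGFB1 (80) with loess offsets (46), and the 14 ADAMTS9, ADAMTS9-AS1 and ADAMTS9-AS2 peaks lowered by TGFB1 with median-of-ratios scaling or loess offsets (9 each). TGFB1 lowered 13 to 19 ADAMTS1 peaks and 0.98 to 2.87% of all peaks over the scalings. The cause of these shifts was not tested.

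Leaving out 1 library at a time gave 25 to 30 calls for TNF, 33 to 46 for TGFB1, 11 to 20 for IL1B (lowest without IL1B replicate 3), 15 to 27 for OSM (16 or fewer without unstimulated replicate 4 or OSM replicate 1 or 3), 3 to 8 for IL13 (lower without unstimulated replicate 4 or IL13 replicate 2), 2 to 7 for IFNG (lower without unstimulated replicate 2 or 3 or IFNG replicate 1, 2 or 4), 3 to 4 for IFNA, 0 to 2 for IL6 (0 without unstimulated replicate 4 or IL6 replicate 4, 2 without IL6 replicate 3), 0 to 1 for IL22 (0 without unstimulated replicate 2 or IL22 replicate 2 or 4), 25 to 32 for TGFB1 against TNF, 39 to 56 for OSM against TNF and 62 to 75 for OSM against TGFB1. TGFB1 lowered 16 to 19 ADAMTS1 peaks and 10 to 14 of the ADAMTS9 locus.

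Among calls at named peaks, direction turned only for OSM against TGFB1. It did so at ADAMTS6 65481709 with loess offsets (-0.18) and at ADAMTS12 33788883 with loess offsets (-0.17). At ADAMTS2 179265494 it turned with library totals (-0.01), median-of-ratios scaling (-0.09), loess offsets (-0.45) and the covered-peak factor (-0.07).

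Same-numbered replicates showed no shared deviation (0 of 220 pairs of libraries correlated over 0.1, median 0.00352). At a median of 0.772 per Mb over all tested peaks, near the level of 3 reads, counting error can hide one. The check therefore cannot tell whether the numbers pair the samples. With the replicate number as a block the calls were 33 for TNF, 19 for IL1B, 26 for OSM, 49 for TGFB1, 57 for OSM against TNF and 81 for OSM against TGFB1, TGFB1 lowered 19 ADAMTS1 peaks, and none of the 106 calls was lost. Levels below the floor of 3 reads, 0.285 to 1.55 per Mb, cannot be resolved at this depth.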

Other observations

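The peaks whose group means most resembled those of the ADAMTS9-AS1 peak at chr3:64548185-64548685 over the 11 groups, among 167708 peaks searched, were assigned to LOC101928386 (Pearson's r 0.989), AGO1 (0.988), MIR620 (0.987), LINC01137 (0.98) and SLC8A1 (0.979). For the TNF-raised ADAMTS9 peak 289.5 kb upstream of its start they were assigned to STOML1 (0.981), SLC9A9-AS1 (0.979), ZFP36L1 (0.976), LINC01572 (0.973) and RAD54L (0.973). These values describe a likeness of 11 means that share libraries and depth.

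Outside the 9 genes, the peak most raised and the peak most lowered in each related list, among those called with no overlap of libraries, were these. TNF raised an intronic ADAMTS10 peak (chr19:8598281-8598781) from 0.821 ± 0.104 to 8.69 ± 0.548 per Mb (SD, n = 4, log2 change 2.8, limma adjusted p = 7.73e-11). TNF also raised a distal peak of PCSK6, a proprotein convertase (chr15:101579723-101580223, change 2.27, limma adjusted p = 6.85e-07), and lowered a distal peak of VCAN, which encodes the substrate versican (chr5:83446088-83446588, change -1.79, limma adjusted p = 3.38e-05). IFNG raised an intronic ADAMTSL3 peak (chr15:83747061-83747561) from 0.938 ± 1.04 to 5.32 ± 1.38 per Mb (SD, n = 4, change 2.21, limma adjusted p = 4.56e-06), and IL13 lowered a distal ADAMTSL1 peak (chr9:18457447-18457947, change -1.38, limma adjusted p = 0.0366). The most lowered peak of the other ADAMTS genes was an intronic ADAMTS8 peak (chr11:130418652-130419152), which held 3.66 ± 0.939 per Mb in unstimulated libraries and 0.67 ± 0.246 with IL1B (SD, n = 4), given as a description.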
